A study of Homo sapiens with 12 samples.

Results

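The comparison described here set a pair of small interfering RNA (siRNA) duplexes against each other, siFAT1-1 and siFAT1-2, which were both designed to lower FAT1 in the oral squamous cell carcinoma lines HN6 and HN30. Of the 12 poly(A) RNA libraries of the study, 8 entered the comparison, the 4 whose column is headed sh1 and the 4 headed sh2. Each duplex was represented by 2 libraries of HN6 and 2 of HN30, prepared from cells harvested 24 h after transfection with Lipofectamine RNAiMAX, and the 2 libraries of a condition were made at separate times (repeats 1 and 2). The other 4 libraries came from the same lines transfected with a scrambled siRNA (NC) and served as a reference level. The labels call the duplexes hairpins in the group names and siRNAs in the descriptions, and they were read as siFAT1-1 for sh1 and siFAT1-2 for sh2. HN6 and HN30 are established lines, so the results are those of 2 cultures under a transient transfection. P-values measure the spread between repeats of these cultures, and in the fit over both lines also differences in response between the lines.

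An siRNA duplex delivers a short guide strand to an Argonaute protein, and the loaded guide pairs with its target transcript along its length, after which the transcript is cut. The bases near the 5′ end of the guide, the seed, can also pair with short complementary words in other transcripts, mostly in their 3′UTRs, and this lowers those transcripts moderately. Duplexes against the same gene therefore share their target and differ in their seeds. FAT1 itself is a very large atypical cadherin of the cell surface, linked to Hippo signaling, cell polarity and migration.

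The sites of the duplexes lay 4417 nt apart in the coding sequence of FAT1 (transcript ENST00000441802, minus strand of chromosome 4, GRCh38). The siFAT1-1 site was in exon 10 of 27, at chr4:186618791-186618809, and the siFAT1-2 site in exon 23, at chr4:186598017-186598035. Both are shown 5′ to 3′ along the transcript, with the 7 bases complementary to guide positions 2 to 8 in capitals, since these words are followed through other genes further on.
FAT1 at the siFAT1-1 site: gcaccacaattTCGAGCAa
FAT1 at the siFAT1-2 site: gcacgtgtgttGTCGACAa

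Of the 10 genes with the smallest p that were lower with siFAT1-2, 3 held the word of siFAT1-2, GTCGACA, in the 3′UTR. These were RNF187 (chr1:228494741-228494759, plus strand), GLYR1 (chr16:4805225-4805243, minus strand) and AP1M1 (chr19:16234585-16234603, plus strand). PSMD13 (chr11:252670-252688, plus strand) is shown as a further gene that was picked for holding this word. Among the 10 genes with the smallest p that were lower with siFAT1-1, 3 held in the 3′UTR the overlapping word CGAGCAA, which is complementary to guide positions 2 to 7 followed by A. Among these were NECAP1 (chr12:8097316-8097334, plus strand) and NAA60 (chr16:3486915-3486933, plus strand). The windows below have the length of the siRNA target, and the capitals mark the word.
RNF187: tagataaattaGTCGACAg
GLYR1: tacactaagctGTCGACAc
AP1M1: tctgctctgccGTCGACAc
PSMD13: ctgctcagacgGTCGACAt
NECAP1: tttgtttctaaaCGAGCAA
NAA60: tctgtctcattaCGAGCAA

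The deposited whole-number counts summed to between 26430049 and 47639010 per library. Levels are given in CPM, counts scaled to a common library total, and differences as log2 fold changes, positive where siFAT1-1 was higher. Repeats of a condition correlated between 0.944 and 0.990 (Pearson r of log2 CPM across genes) and differed by more than counting noise in every condition. Of 10 squamous epithelial markers, 9 stood above 1 CPM in every library, as the label of the lines implies. Of 8 leukocyte markers, 6 stood below 1 CPM in every library (TYROBP at 0 throughout), CD14 and CD68 stood above it, and the summed level ran from 25.7 to 129 CPM. Of 8 fibroblast markers, 2 stood above 1 CPM in every library, with a summed level of 13.1 to 171 CPM. None of 6 endothelial markers did, and their summed level was 2.98 to 10.2 CPM with siFAT1-1 and 0.276 to 3.20 CPM with siFAT1-2, with CDH5 (3.65) and VWF (1.99) called. The part of other cell types in the results was not tested. The repeats of siFAT1-2 were the less alike of the duplexes (r 0.960 in HN6 and 0.969 in HN30, against 0.987 and 0.990 with siFAT1-1), and HN6 NC repeat 2 stood apart from HN6 NC repeat 1 (r 0.944).

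FAT1 was measured first. With siFAT1-1 it stood at 7.61 and 13.5 CPM in HN6 and at 4.86 and 6.25 CPM in HN30. With siFAT1-2 it stood at 13.2 and 21.4 CPM in HN6 and at 10.8 and 7.75 CPM in HN30, where the NC libraries held 56.8 and 66.7 CPM in HN6 and 13.6 and 14.7 CPM in HN30. The duplexes overlapped in HN6 and did not overlap in HN30. Against NC the log2 fold change was -2.0 with siFAT1-1 (adjusted p = 0.0065) and -1.27 with siFAT1-2 (adjusted p = 0.024), 2 comparisons that share the NC libraries. Between the duplexes it was -0.73 ± 0.307 (SE, 4 libraries against 4), with an adjusted p of 0.118, so that a difference in the remaining FAT1 was not shown. Over all alternative settings the value ran from -0.91 to -0.54 and never passed the threshold.

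Beyond the target, the duplexes parted widely. Of 14105 genes tested with edgeR's quasi-likelihood test, 2400 had an adjusted p under 0.05 between siFAT1-1 and siFAT1-2 (17.0%, called from here on), 1378 of them higher with siFAT1-1 (9.77%) and 1022 higher with siFAT1-2 (7.25%). At an unadjusted P under 0.05 there were 4737 genes (33.6%), and 1761 of them (12.5%) differed more than 2-fold, the thresholds of the study's methods, 1034 higher with siFAT1-1 (7.33%) and 727 higher with siFAT1-2 (5.15%). In 4760 genes (33.7%) the libraries of the duplexes did not overlap in either line, in the same direction in both, and 2282 of these genes were also called (16.2%), 9.46% of all genes higher with siFAT1-1 and 6.72% higher with siFAT1-2. The median over all tested genes was -0.02. The balance of the calls followed the scaling and the libraries fitted, with 57.4% of calls higher with siFAT1-1 in this fit, 44% when library totals were used without TMM (which moved the median of all genes by -0.09) and 47.5% in a fit of the 8 libraries alone.

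The called differences had the same sign in both lines for 2393 of the 2400 genes. These genes were chosen on the average of the lines, in a fit whose spread includes differences between the lines. Such a choice favours genes of the same sign, so this count is no separate measure of agreement between the lines. Across all tested genes the differences in HN6 and HN30 correlated at r = 0.443, a description across genes that share libraries. Within HN30 alone 1169 of 14360 genes were called (8.14%), and within HN6 26 (0.181%). The HN6 count depended on the fit, at 8 with the repeat as a block, 979 with DESeq2 and 1134 in the 8 libraries alone. The HN30 count was 2481 with DESeq2 and 1930 in the 8 libraries alone. The counts at an unadjusted P under 0.05 were 3761 in HN30 (26.2%) and 2570 in HN6 (17.9%), with 14.8% and 9.02% of genes also beyond 2-fold. No gene was called by edgeR for a difference of the differences between the lines (0 of 14360, 0%), with 856 at an unadjusted P under 0.05 (5.96%), 9 called by DESeq2 and 0 by limma-voom. On simulated counts this interaction test recovered 20.2% of genes changed 4-fold in HN6 alone and 0% of those changed 2-fold, so a difference between lines was hardly detectable in this design.

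**Figure D1:**
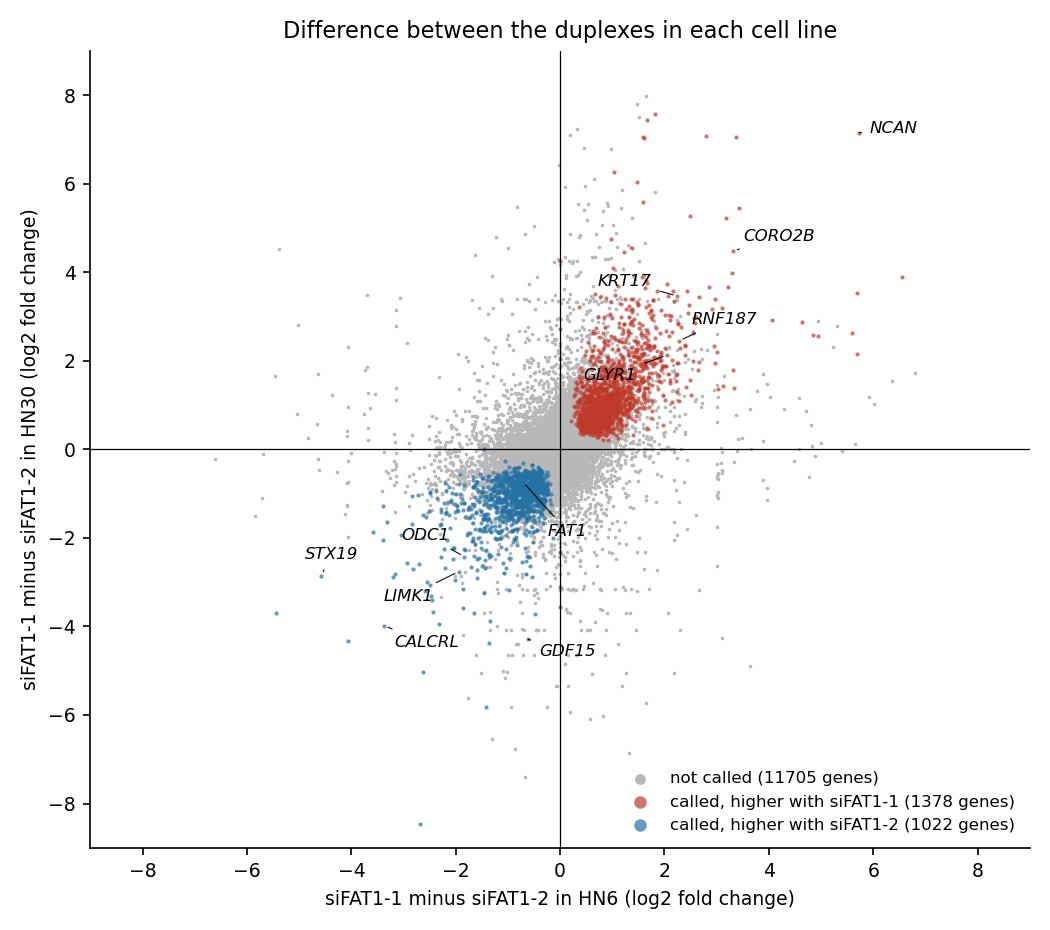
Log2 fold change between siFAT1-1 and siFAT1-2 in HN6 (horizontal axis) and in HN30 (vertical axis), 1 point per tested gene, with genes called higher with siFAT1-1 in red and higher with siFAT1-2 in blue. The called genes lie in the upper right and lower left corners, 2393 of 2400 with the same sign in both lines, which the choice of called genes favours.

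The calls depended on single libraries. Their number was 994 without HN30 siFAT1-1 repeat 2, 1018 without HN30 siFAT1-1 repeat 1, 1323 without HN6 siFAT1-1 repeat 1 and 1331 without HN30 siFAT1-2 repeat 1, and rose to 3333 without HN6 NC repeat 2. Of 153 called genes named by the rule given under the processing, 100 kept an adjusted p under 0.05 whichever library was left out, and 3 lost it with the repeat as a block (ERBB2, DSG3 and RPA2).

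Among the 10 genes with the smallest p that were higher with siFAT1-1, most stood at or near the NC level with siFAT1-1 and low with siFAT1-2. RNF187, a RING-type ubiquitin ligase linked to AP-1 signaling, stood in HN6 at 53.7 and 41.5 CPM with siFAT1-1 and at 10.1 and 9.49 CPM with siFAT1-2, and in HN30 at 134 and 132 CPM against 24.1 and 24.7 CPM. The siFAT1-2 libraries were the low ones in both lines, and the NC libraries (47.6 and 39.4 CPM in HN6, 118 and 93.4 CPM in HN30) lay at the level of siFAT1-1. The log2 fold change between the duplexes was 2.37 ± 0.155 (SE, adjusted p = 3.43e-05).

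GLYR1, a chromatin-associated protein of transcribed genes, stood at 104 and 112 CPM with siFAT1-1 in HN6 and at 20.03 and 32.3 CPM with siFAT1-2, and in HN30 at 130 and 129 CPM against 27.9 and 31.2 CPM. Its NC libraries held between 75.5 and 110 CPM over both lines, far above every siFAT1-2 library, and the log2 fold change was 2.09 ± 0.171 (adjusted p = 0.00017). AP1M1, the medium subunit of the AP-1 clathrin adaptor that sorts cargo at the Golgi, stood in HN6 at 109 and 80.5 CPM against 17.9 and 20.9 CPM, and in HN30 at 76.0 and 79.6 CPM against 18.5 and 13.5 CPM. Again the siFAT1-2 libraries were low in both lines without overlap, at a log2 fold change of 2.29 ± 0.196 (adjusted p = 0.00017).

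The calcium-dependent protease CAPN1 (log2 fold change 1.53), the adaptor CMIP (1.61) and FKBP9, a prolyl isomerase of the endoplasmic reticulum (2.15), shared this pattern. CAPN1 stood at 1144 and 911 CPM with siFAT1-1 in HN6 against 270.0 and 368 CPM with siFAT1-2, and in HN30 at 750.5 and 797.5 CPM against 302 and 293 CPM. Against NC, siFAT1-1 gave 0.27 for CAPN1, 0.22 for CMIP and -0.14 for FKBP9, while siFAT1-2 gave -1.26, -1.39 and -2.29, and each siFAT1-2 value was past the threshold.

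Other genes of the same 10 lay with NC between the duplexes. MGLL, the lipase that breaks down the endocannabinoid 2-AG and other monoacylglycerols, stood in HN30 at 508 and 544 CPM with siFAT1-1, at 300 and 201 CPM with NC and at 126 and 120 CPM with siFAT1-2. In HN6 it stood at 253 and 186 CPM with siFAT1-1, at 125 and 129 CPM with NC and at 68.3 and 89.1 CPM with siFAT1-2, so the order was the same in both lines. CLIC3, of the chloride intracellular channel family, differed by 2.51 (siFAT1-1 minus NC 1.46, siFAT1-2 minus NC -1.05), and the spectrin gene SPTBN5 by 2.81 (1.30 and -1.51).

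NCAN, which encodes the brain proteoglycan neurocan, had the largest called difference of all genes without overlap (6.97 ± 0.594, adjusted p = 0.00017), and it rested on HN30. There it stood at 33.1 and 42.0 CPM with siFAT1-1, at 3.65 and 4.51 CPM with NC and at 0.318 and 0.204 CPM with siFAT1-2. In HN6 no library reached 0.3 CPM, with 0.136 and 0.255 CPM with siFAT1-1 and none with siFAT1-2. CORO2B, a coronin that binds actin (4.03), the peptide hormone gene QRFP (4.53), the glycosyltransferase gene GALNT9 (4.4) and FAM131B (4.10) followed in size, all of them low genes with at most 9.09 CPM in any library, and for QRFP at most 0.647 CPM.

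In the other direction, several genes were low with siFAT1-1 and near the NC level with siFAT1-2. LIMK1, the kinase that phosphorylates cofilin and so stabilises actin filaments, stood in HN6 at 44.6 and 44.1 CPM with siFAT1-1 against 174 and 167 CPM with siFAT1-2, and in HN30 at 34.7 and 32.5 CPM against 181 and 274 CPM. NC held 177 and 226 CPM in HN6 and 148 and 197 CPM in HN30, so the siFAT1-1 libraries were the ones that stood apart. The log2 fold change was -2.36 ± 0.212 (adjusted p = 0.000179).

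INTS14, a subunit of the Integrator complex (-2.03), and NAA60, an N-terminal acetyltransferase of the Golgi (-1.51), were likewise low with siFAT1-1 alone, at -2.11 and -1.75 against NC with siFAT1-1 and -0.07 and -0.24 with siFAT1-2.

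The remaining genes of these 10 moved away from NC on both sides or rose with siFAT1-2. ODC1, the enzyme that starts polyamine synthesis and a well known MYC target, stood in HN6 at 105 and 114 CPM with siFAT1-1, 184 and 248 CPM with NC and 451 and 331 CPM with siFAT1-2. In HN30 it stood at 44.7 and 59.8 CPM, 117 and 108 CPM, and 303 and 257 CPM in the same order, so that the 3 groups did not overlap in either line. The difference was -2.13 ± 0.186 (adjusted p = 0.00017), with siFAT1-1 at -1.04 against NC (adjusted p = 0.0097) and siFAT1-2 at 1.1 (adjusted p = 0.0049). The zinc transporter SLC39A6 (-1.87) and SPTLC1, a subunit of the enzyme that starts sphingolipid synthesis (-1.67), were called against NC in opposite directions as well. NECAP1, a clathrin accessory protein, differed by -1.72, of which -1.21 was siFAT1-1 against NC, whereas RPF2, a ribosome assembly factor, differed by -1.44, of which 1.13 was siFAT1-2 against NC.

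The largest differences in this direction were in low genes, the receptors CALCRL (-3.70) and F2R (-2.91), the esterase BCHE (-3.02), STX19 (-3.41) and the matrix proteoglycan LUM (-3.91). F2R, the thrombin receptor, was the most abundant, at 5.86 and 6.30 CPM with siFAT1-1 in HN6 against 52.5 and 13.8 CPM with siFAT1-2, and in HN30 at 4.30 and 3.85 CPM against 66.2 and 20.2 CPM. The groups did not overlap, and repeat 1 of siFAT1-2 was the highest library in each line. LUM and STX19 lost their calls without HN30 siFAT1-1 repeat 2, and LUM also without HN6 or HN30 siFAT1-1 repeat 1.

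**Figure D2:**
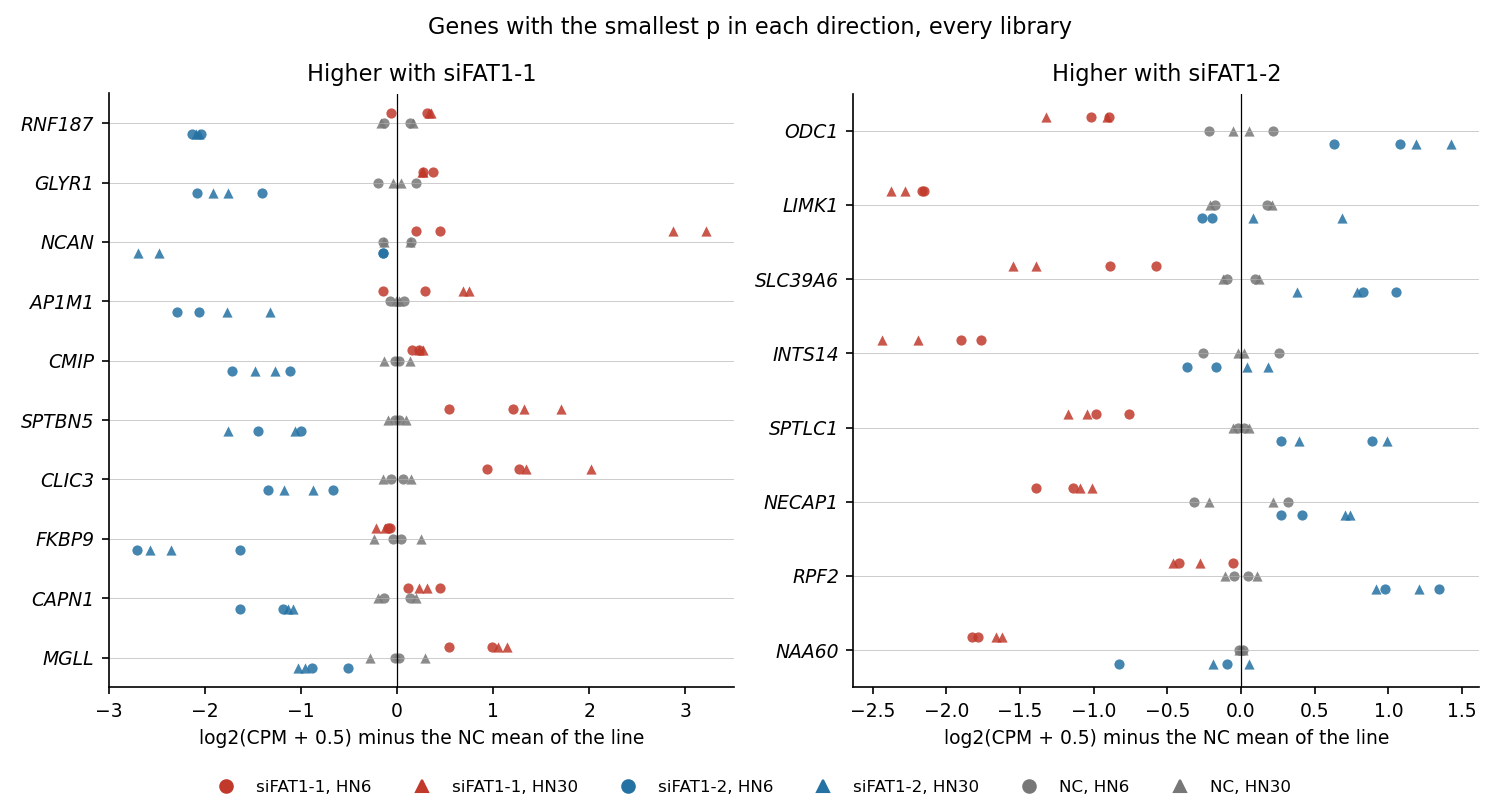
Level of the genes described among the 10 with the smallest p in each direction, as log2(CPM + 0.5) minus the mean of the NC libraries of the same line, 1 point per library (circles HN6, triangles HN30, red siFAT1-1, blue siFAT1-2, grey NC). RNF187, GLYR1, AP1M1, CMIP, FKBP9 and CAPN1 have the siFAT1-2 libraries apart from the other groups, and LIMK1, INTS14 and NAA60 the siFAT1-1 libraries.

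Seed words were then counted in all genes. TCGAGCA, the word of siFAT1-1, stood in the 3′UTR of 191 of 13917 tested genes with an annotated 3′UTR (1.37%), and GTCGACA, the word of siFAT1-2, in 107 (0.769%). The median difference between the duplexes was -0.23 in genes with the siFAT1-1 word and -0.02 in genes without it, and 0.32 in genes with the siFAT1-2 word against -0.02 without. Of the 107 genes with the siFAT1-2 word, 26 were called lower with siFAT1-2 (24.3%, against 9.79% of all these genes) and 3 lower with siFAT1-1. Of the 191 with the siFAT1-1 word, 26 were called lower with siFAT1-1 (13.6%, against 7.3%) and 12 lower with siFAT1-2. Over 25 settings the median stayed between -0.32 and -0.18 for the siFAT1-1 word and between 0.23 and 0.43 for the siFAT1-2 word.

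In coding sequences, 409 genes held the siFAT1-2 word (2.94%), with a median of 0.26. Of these, 90 were called lower with siFAT1-2 (22.0%) and 14 lower with siFAT1-1. The siFAT1-1 word was in 911 coding sequences (6.54%), with a median of -0.06 and 94 genes called in each direction (10.3%). Of all genes with a coding sequence, 7.3% were called lower with siFAT1-1 and 9.78% lower with siFAT1-2. When the GC trend of each library was removed, 123 of the 911 were called lower with siFAT1-1 and 64 lower with siFAT1-2. Of the 409 with the siFAT1-2 word, 17 were then called lower with siFAT1-1 and 86 lower with siFAT1-2. Over all 14105 tested genes that fit called 1212 lower with siFAT1-1 and 1210 lower with siFAT1-2. In 3′UTRs the shorter words that end in A gave medians of -0.17 for CGAGCAA (209 genes) and 0.09 for TCGACAA (138 genes). Of the genes with CGAGCAA, 38 were called lower with siFAT1-1 (18.2%) and 12 lower with siFAT1-2. Of those with TCGACAA, 27 were called lower with siFAT1-2 (19.6%) and 8 lower with siFAT1-1. TGTCACG, the word of the scrambled siRNA, was in 403 3′UTRs with a median of 0.00. Genes with a word had longer 3′UTRs (median 3386 and 3197 nt for the words of siFAT1-1 and siFAT1-2, against 1245 nt over all), and the part of this length in the medians was not tested.

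**Figure D3:**
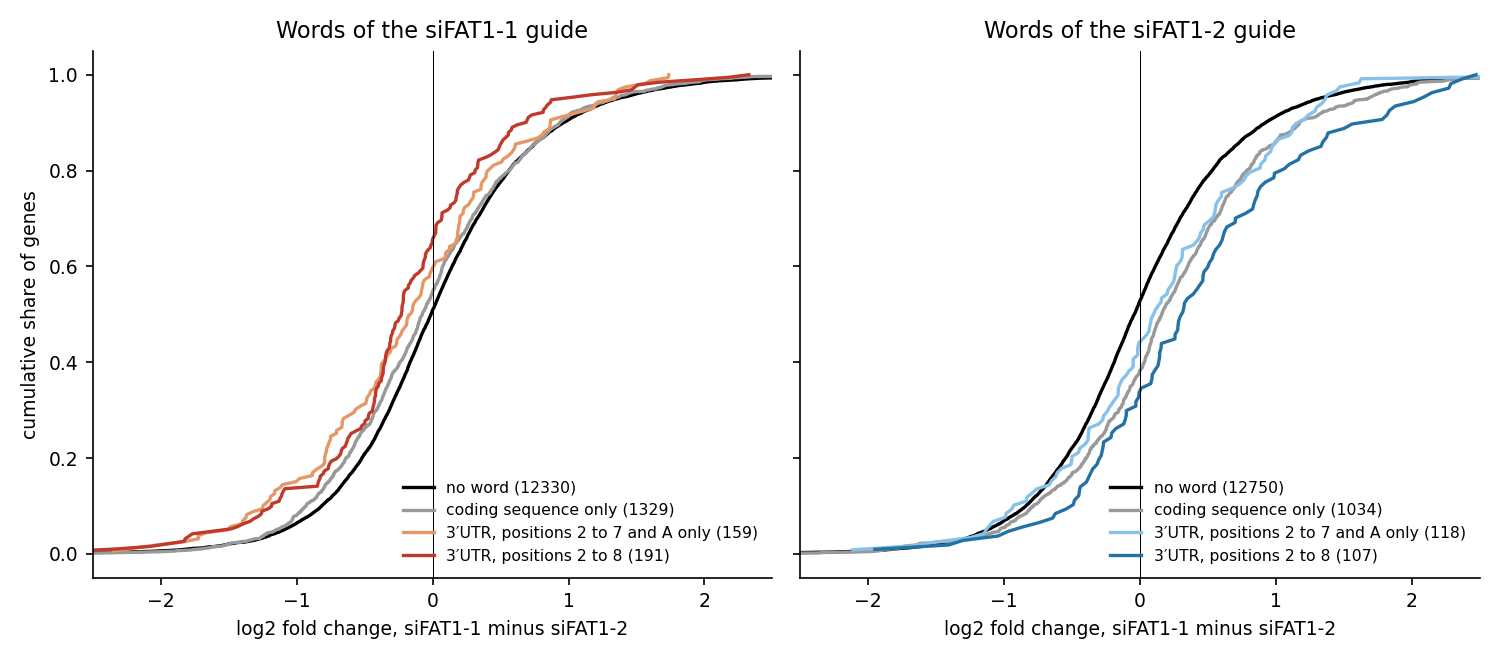
Cumulative share of genes (vertical axis) by log2 fold change between siFAT1-1 and siFAT1-2 (horizontal axis), for genes with and without the words of the siFAT1-1 guide (left) and of the siFAT1-2 guide (right). The curve of genes with TCGAGCA in the 3′UTR lies to the left of the genes without it (median -0.23), and that of GTCGACA to the right (median 0.32).

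The words were frequent at the top of the ranking. Of the 10 genes with the smallest p that were lower with siFAT1-1, 6 held a siFAT1-1 word in the 3′UTR or the coding sequence and none a siFAT1-2 word, and of the 10 that were lower with siFAT1-2, 6 held a siFAT1-2 word and none a siFAT1-1 word. Over all genes with a transcript the shares were 12% for siFAT1-1 words and 8.99% for siFAT1-2 words. LIMK1 held TCGAGCA at 2 places in the coding sequence, and SPTLC1 held the shorter CGAGCAA there. CLIC3 and MGLL held GTCGACA in the coding sequence and CMIP the shorter TCGACAA. In the 100 genes with the smallest p the siFAT1-1 words were in 38 of those lower with siFAT1-1 and 8 of those lower with siFAT1-2, and the siFAT1-2 words in 4 and 33. No such word was found in NCAN, SPTBN5, FKBP9, CAPN1, ODC1, SLC39A6, INTS14 or RPF2. Some genes named with the lists further on also held a word in the 3′UTR and were lower with its duplex than with the other duplex. These were TPM4 and LIF (GTCGACA), ARF1 (TCGACAA), TGFA and CDK6 (TCGAGCA) and ITGB1 (CGAGCAA). TPM4 stood above NC with both duplexes, so it was lower with siFAT1-2 only relative to siFAT1-1. Genes with TCGAGCA or GTCGACA that were called in the other direction are counted above. A match of this kind is a description of the letters and not a site or a cause.

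The position of NC differed between the directions. Among genes called higher with siFAT1-1, the NC mean lay nearer siFAT1-1 for 72.2%, against 57.6% of all tested genes, and between the duplexes and nearer siFAT1-1 for 725 (52.6%). Among genes called higher with siFAT1-2, NC lay nearer siFAT1-1 for 53.5%. Against NC itself, 452 genes were called with siFAT1-1 (3.20%) and 1635 with siFAT1-2 (11.6%). The NC mean includes HN6 NC repeat 2, in which genes of high GC content stood 1.15 log2 above those of low GC content. In repeat 1 this gap, described further on, was -0.08. Genes called higher with siFAT1-1 were rich in GC (median 57.1%, against 49.1% over all). The part of this library in these shares and counts was not tested.

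Pathways were described with 41 lists of genes, by the number of members called and the median difference, read against 9.77% of all genes called higher with siFAT1-1, 7.25% called higher with siFAT1-2 and a median of -0.02. Interferon-stimulated genes, the antiviral effectors that type I interferon switches on, had the highest median (1.41 over 38 tested members, 1.5 in HN6 and 1.41 in HN30). Of them 37 were on the side of siFAT1-1, 31 did not overlap in either line (17.9% of all genes did so on this side), and 8 were called (21.1%). The 4 called members with the smallest p were ISG20, an RNA exonuclease (1.57), STAT2, a transcription factor of the interferon response (0.89), IFI27 (2.02) and IFITM3, a membrane protein that blocks viral entry (1.45), the last of which shares reads with its close copies and is uncertain. IFI27 stood at 190 and 104 CPM with siFAT1-1 in HN6 against 13.4 and 63.0 CPM with siFAT1-2, and in HN30 at 6.73 and 6.90 CPM against 0.693 and 2.39 CPM. The spread between repeats was wide, since siFAT1-2 repeat 1 was the lower repeat in both lines. With the repeat as a block 27 members were called, with limma-voom 24 and with DESeq2 20, whereas 3 were called without HN6 siFAT1-1 repeat 1, without either HN30 siFAT1-1 library or without HN30 siFAT1-2 repeat 1, 5 without HN6 siFAT1-2 repeat 1 and 14 without HN30 siFAT1-2 repeat 2. Side by side the medians against NC were 1.03 with siFAT1-1 and -0.38 with siFAT1-2.

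The sensors that detect double-stranded RNA in the cytoplasm, and their adaptors, had a median of 0.58. Of 15 tested members 1 was called (6.67%, against 9.77% of all genes called higher with siFAT1-1). This was TRIM25 (0.89, adjusted p = 0.0413), a ubiquitin ligase that activates the sensor RIG-I. RIG-I itself (DDX58) stood at 109 and 66.0 CPM with siFAT1-1 in HN6 against 22.6 and 65.5 CPM with siFAT1-2, and in HN30 at 293 and 379 CPM against 43.98 and 239 CPM. The libraries just missed overlapping in HN6, the NC libraries ran from 23.1 to 219 CPM, and the adjusted p was 0.145, or 0.0442 with the repeat as a block. DHX58 and IRF7 were called with the block as well (adjusted p = 0.0179 and 0.0201). The list then had 6 of 15 called, all higher with siFAT1-1, where 1533 of 14360 genes were called in that direction. The count was 5 without HN6 NC repeat 2 or HN30 siFAT1-2 repeat 2, and TRIM25 lost its call without any 1 of the siFAT1-1 libraries, without repeat 1 of siFAT1-2 in either line and without either HN30 NC library. TRIM25 also lost it in the 8 libraries alone, without TMM, without a term for cell line and with 6 condition means. In the 8 libraries alone 2 members were called higher with siFAT1-1 and 1 higher with siFAT1-2.

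Genes of HLA class I antigen presentation, which carry peptides to the cell surface for T cells, had the highest share of calls. Of 17 members 11 were called, all higher with siFAT1-1 (64.7%), at a median of 0.88. PSMB10, a subunit of the immunoproteasome, stood at 54.9 and 43.9 CPM with siFAT1-1 in HN6 against 18.7 and 23.0 CPM with siFAT1-2, and in HN30 at 53.3 and 49.0 CPM against 21.7 and 25.8 CPM. NC stood at 53.8 and 56.5 CPM in HN6 and at 48.3 and 43.4 CPM in HN30, beside siFAT1-1, and the difference was 1.17 ± 0.162 (adjusted p = 0.00141). NLRC5, the transactivator of class I genes, differed by 1.28, HLA-B by 0.93 and HLA-C by 0.80, the last pair being uncertain because HLA genes share reads. The list had a median of 0.07 against NC with siFAT1-1 and of -0.69 with siFAT1-2. Its count was 7 without repeat 1 of either duplex in either line and without HN30 siFAT1-1 repeat 2, and its members were rich in GC (median 55.1%, against 49.1% over all).

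Keratins, the filament proteins of epithelial cells, followed with 8 of 18 members called, all higher with siFAT1-1 (44.4%), at a median of 1.02. KRT17, a keratin of activated and basal keratinocytes, stood at 1223 and 725 CPM with siFAT1-1 in HN6 against 172 and 239 CPM with siFAT1-2, and in HN30 at 114 and 96.0 CPM against 11.2 and 7.84 CPM. Its NC libraries lay between the duplexes in every case (301 and 380 CPM, then 47.7 and 13.1 CPM), and the difference was 2.82 ± 0.396 (adjusted p = 0.00144). KRT8 (0.89), KRT7 (1.01) and KRT6A (1.82) were also higher, with KRT17 and KRT6A uncertain because of near-identical copies. The squamous marker genes summed to between 8260 and 10900 CPM with siFAT1-1, 6000 and 8470 CPM with NC and 5050 and 6730 CPM with siFAT1-2, and 6 of the 10 were called higher with siFAT1-1. Keratins had a median GC content of 57.6%. When the GC trend of each library was removed the median was 0.71 and 4 were called, and 5 were called without either HN30 siFAT1-1 library or without HN30 siFAT1-2 repeat 1.

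Genes of the actin cytoskeleton, with tropomyosins and the Ena/VASP regulators of filament growth, had 11 of 27 members called, all higher with siFAT1-1 (40.7%), at a median of 0.51. TPM1, a tropomyosin that coats actin filaments, stood at 692 and 638 CPM with siFAT1-1 in HN6 against 165 and 252 CPM with siFAT1-2, and in HN30 at 78.3 and 70.6 CPM against 21.0 and 20.3 CPM. NC lay above siFAT1-2 in each line (644 and 434 CPM, then 61.4 and 33.7 CPM), and in HN6 repeat 1 of NC reached the siFAT1-1 libraries. The difference was 1.76 ± 0.214 (adjusted p = 0.000892). VCL, which links integrins to actin, differed by 1.26, and the actinins ACTN1 and ACTN4 by 1.32 and 0.97. The number called for the list ran from 8 without either HN30 siFAT1-1 library to 13 without HN6 NC repeat 2.

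TPM4, another tropomyosin, was the gene of the study's qRT-PCR panel that parted the duplexes. It stood at 1108 and 1057 CPM with siFAT1-1 in HN6 against 562 and 611 CPM with siFAT1-2, and in HN30 at 1318 and 1250 CPM against 597 and 626 CPM. The NC libraries held 236 and 215 CPM in HN6 and 143 and 153 CPM in HN30, so both duplexes lay above NC and siFAT1-1 the further, at log2 fold changes of 2.68 and 1.69 against NC and 0.99 ± 0.169 between them (adjusted p = 0.00357). The panel was chosen by the study on these samples. Of its other 12 genes none was called between the duplexes by edgeR, with 1 more at an unadjusted P under 0.05, which was MYBL2, and 1 more called by DESeq2. MYBL2, a transcription factor of dividing cells, stood at 201 and 170 CPM with siFAT1-1 in HN6 against 24.6 and 98.7 CPM with siFAT1-2, and in HN30 at 55.0 and 81.8 CPM against 39.9 and 57.4 CPM (1.09, adjusted p = 0.0814). Side by side the median of the panel against NC was -1.1 with siFAT1-1 and -1.38 with siFAT1-2.

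Junction and matrix genes gave a mixed picture. The desmosome plaque genes PKP1 (1.72) and PKP3 (1.28) were higher with siFAT1-1 and the desmosomal cadherin DSG3 (-0.95) was higher with siFAT1-2, in a list whose median of 0.07 turned to -0.02 without TMM. DSG3 lost its call with the repeat as a block (adjusted p = 0.06) and without 7 of the 12 libraries taken singly. Among epithelial-mesenchymal state genes 8 of 26 were called, with the adherens junction cadherin CDH1 (0.86), its regulator OVOL1 (1.1) and the matrix protein SPARC (1.53) higher with siFAT1-1 and the tight junction gene CLDN1 (-1.22) higher with siFAT1-2. CDH1 stood at 979 and 1009 CPM with siFAT1-1 in HN6 against 641 and 561 CPM with siFAT1-2, and in HN30 at 703 and 654 CPM against 314.5 and 367 CPM. The siFAT1-2 libraries lay about the NC level in HN30 (331 and 420.1 CPM) and within its range in HN6 (342 and 645.5 CPM). The list's count was 5 without HN6 siFAT1-1 repeat 1 or either HN30 siFAT1-1 library. SPARC was expressed in HN6 alone, with under 0.3 CPM in every HN30 library.

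Collagens had a median of 0.71 with 4 of 19 called, all higher with siFAT1-1. COL5A1, a chain of fibrillar collagen V, stood at 863 and 702 CPM with siFAT1-1 in HN6 against 367 and 326 CPM with siFAT1-2, and in HN30 at 682 and 714 CPM against 131 and 245 CPM. Here the siFAT1-1 libraries were the ones apart from NC (498 and 434 CPM, then 118 and 212 CPM), at 1.57 ± 0.291 between the duplexes (adjusted p = 0.00525). COL18A1 (0.85), COL13A1 (2.05) and COL4A2 (0.71) were the others, and the count fell to 2 when the GC trend was removed. Of 20 integrins and laminins, ITGB5 (1.45), ITGA3 (0.70) and LAMA5 (0.96) were among the 4 called higher with siFAT1-1, whereas ITGB1, the common beta chain of most matrix receptors, was higher with siFAT1-2 (-1.37 ± 0.275, adjusted p = 0.00722). ITGB1 stood at 348 and 355 CPM with siFAT1-1 in HN6 against 1103 and 948 CPM with siFAT1-2, and in HN30 at 385 and 344 CPM against 803 and 856 CPM. Its siFAT1-2 libraries lay near NC in HN30 (1110 and 874 CPM), while the NC libraries of HN6 themselves read 1263 and 406 CPM. Without HN6 NC repeat 2 the list had 10 calls in place of 5.

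Of 23 invasion proteases and their inhibitors 2 were called, both higher with siFAT1-1, among them TIMP2, an inhibitor of metalloproteases (1.15). The count was 1 without either HN30 siFAT1-1 library and 4 without HN6 siFAT1-2 repeat 1. With the repeat as a block PLAU (1.65) and MMP2 (1.21) passed as well, at adjusted p = 0.0465 and 0.029, and 5 members were called.

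Among the lists around the target, Hippo pathway genes stood near the 17.0% of all genes called, and FAT and Dachsous cadherins had no call by edgeR. Calls among YAP targets were on the side of siFAT1-1 alone in the fit of all 12 libraries. The 8 libraries alone gave 3 calls on that side and 1 on the side of siFAT1-2. Hippo pathway genes, which restrain the coactivator YAP, had 4 of 23 members called (17.4%), with the kinase STK4 (-0.84) higher with siFAT1-2 and TEAD3 (0.58), LIMD1 (0.93) and WWC1 (0.63) higher with siFAT1-1, at a median of 0.04 that turned to -0.05 without TMM. The count was 2 without either HN30 siFAT1-1 library or HN30 siFAT1-2 repeat 1, and 7 without HN6 NC repeat 2. YAP targets had 4 of 21 called (19%, against 9.77% of all genes in that direction), all higher with siFAT1-1 (ASAP1, F3, AXL and MYOF, between 0.66 and 1.00), at a median of 0.50. That count was 1 without either HN30 siFAT1-1 library, 2 without repeat 1 of HN6 siFAT1-1, HN6 siFAT1-2 or HN30 siFAT1-2 and 7 without HN6 NC repeat 2. None of the 6 tested FAT and Dachsous cadherins was called by edgeR, with 2 at an unadjusted P under 0.05 and 1 called each by DESeq2 and limma-voom. DCHS1, a binding partner of FAT cadherins in this family, read 1.68 CPM or less in every library and 0 in both HN30 siFAT1-2 libraries (adjusted p = 0.074).

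On the side of siFAT1-2, MYC and ribosome biogenesis genes had the highest share of calls. Of 38 members 12 were called, all higher with siFAT1-2 (31.6%), and 36 were on that side, at a median of -0.57 (-0.26 in HN6 and -0.84 in HN30). DDX18, a helicase of ribosome assembly, stood at 50.5 and 55.6 CPM with siFAT1-1 in HN6 against 99.0 and 129 CPM with siFAT1-2, and in HN30 at 42.7 and 48.7 CPM against 170 and 154 CPM. In HN30 the NC libraries (109 and 125 CPM) lay between the duplexes, and in HN6 they read 79.9 and 46.5 CPM, and the difference was -1.43 ± 0.241 (adjusted p = 0.00338). WDR75 (-0.88), the MYC partner MAX (-0.86) and the nucleolar GTPase GNL3 (-0.83) were the next by p. The list stood at -0.34 against NC with siFAT1-1 and at 0.20 with siFAT1-2. Its median GC content was 48.2%, near the 49.1% of all genes, and 16 members were called when the GC trend was removed. The count was 3 without HN30 siFAT1-1 repeat 1, 5 without repeat 2 of it and 7 without HN30 siFAT1-2 repeat 1.

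Cytosolic ribosomal protein genes had 5 of 76 called, all higher with siFAT1-2 (6.58%, against 7.25% of all genes), among them RPL7, RPL24, RPL11 and RPL5 (between -0.74 and -0.55). The median was -0.18, from -0.00144 in HN6 and -0.361 in HN30, and 66 of the 76 were below 0. These genes share reads with many pseudogenes and are uncertain. Without TMM 14 were called and with the GC trend removed 8, and the count was 1 without HN30 siFAT1-1 repeat 2, 2 without HN30 siFAT1-1 repeat 1 or HN30 siFAT1-2 repeat 1, 3 without HN6 siFAT1-1 repeat 1 and 8 without HN6 NC repeat 2. Splicing factors had 3 of 32 called, all higher with siFAT1-2, of which SRSF4 (-1.24 ± 0.161, adjusted p = 0.00106) kept its call whichever library was left out, while SRSF3 (-0.42) and SRSF7 (-0.48) lost theirs without most of the libraries taken singly.

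Cell cycle and repair lists had medians below 0, with fewer members called than the 7.25% of all genes called higher with siFAT1-2. S phase genes had a median of -0.47 (-0.10 in HN6 and -0.92 in HN30), with 2 of 43 called (4.65%), TIPIN (-1.33) and RPA2 (-0.57), both replication fork proteins. Genes of replication origins and forks had a median of -0.40 (0.18 in HN6 and -0.88 in HN30), with 2 of 46 called (4.35%), ORC4 (-0.88), of the origin recognition complex, and RPA2. Homologous recombination and Fanconi genes had a median of -0.29, with 2 of 29 called (6.9%), BRCA2 (-1.78) and RBBP8 (-1.46), which act on broken DNA ends. BRCA2 stood at 1.34 and 1.02 CPM with siFAT1-1 in HN6 against 4.35 and 9.03 CPM with siFAT1-2, and in HN30 at 8.15 and 14.5 CPM against 17.3 and 27.4 CPM, while the NC libraries ran from 1.30 to 52.7 CPM. None of these 5 genes kept its call in every fit that left out 1 library, and without HN6 NC repeat 2 the counts of the 3 lists were 7, 6 and 6, whereas all were 0 without either HN30 siFAT1-1 library. With the repeat as a block 1 member was called in each of the first 2 lists.

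Of 54 G2/M phase genes none was called by edgeR, at a median of -0.23. At an unadjusted P under 0.05 there were 5, while DESeq2 called 4, limma-voom 0 and edgeR with the repeat as a block 1. The sign of that median turned to 0.24 at most, with limma-voom, with the GC trend and the repeat in the model, and without HN6 siFAT1-2 repeat 2. CENPF, a kinetochore protein, shows the spread behind this, at 12.5 and 53.1 CPM in the siFAT1-2 libraries of HN6 and 24.6 and 2.28 CPM in its NC libraries, against 2.56 and 3.63 CPM with siFAT1-1.

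G1/S regulators parted by gene. CCND1, the cyclin that starts G1 progression with CDK4 or CDK6, stood at 4150.0 and 3115 CPM with siFAT1-1 in HN6 against 980 and 2103 CPM with siFAT1-2, and in HN30 at 1110 and 1172 CPM against 428 and 495 CPM. It was at the NC level with siFAT1-1 (-0.13) and low with siFAT1-2 (-1.40), at 1.27 ± 0.248 between the duplexes (adjusted p = 0.00639). CCND3 was higher with siFAT1-1 as well (1.06), whereas CDK6 (-1.43) and the CDK inhibitor CDKN2B (-1.20) were higher with siFAT1-2. Both of the latter lost their calls without 6 or more of the libraries taken singly, and the NC libraries of HN6 read 174 and 24.7 CPM for CDK6.

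Targets of p53, the transcription factor of the DNA damage response, had the lowest median of all lists (-0.60), which rested on HN30 (-1.27, against 0.05 in HN6). Of 25 tested members 5 were called, 3 higher with siFAT1-2 and 2 higher with siFAT1-1. This share was near the 17.0% of all genes called. The called members higher with siFAT1-2 were ZMAT3 (-2.65), GDF15 (-2.83) and TIGAR (-1.05), and the kinase PLK3 was among those higher with siFAT1-1 (1.26). GDF15, a secreted stress cytokine, stood in HN30 at 20.7 and 18.7 CPM with siFAT1-1 and at 622 and 148 CPM with siFAT1-2, and in HN6 at 13.8 and 17.4 CPM against 28.5 and 19.1 CPM. HN30 siFAT1-2 repeat 1 was the highest library for GDF15, ZMAT3 (172 CPM, against 44.6 CPM in repeat 2) and TIGAR (111 and 42.5 CPM). All 3 lost their calls without either HN30 siFAT1-1 library, and the list's count of 5 was 1 without either of these, 2 without HN6 siFAT1-1 repeat 1, 3 without HN30 siFAT1-2 repeat 1 and 9 without HN6 NC repeat 2. In the BCL2 family, which decides on apoptosis, BCL2L11 (BIM) was higher with siFAT1-2 (-1.59 ± 0.228, adjusted p = 0.00158) and BID was higher with siFAT1-1 (0.78).

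In the EGFR family list of 13 tested genes 3 members were called higher with siFAT1-2 and 1 higher with siFAT1-1. The ligands TGFA (-1.12), EREG (-1.31) and AREG (-1.5) were higher with siFAT1-2, and the receptor ERBB2 was higher with siFAT1-1 (0.56), a call it lost with the repeat as a block (adjusted p = 0.0524). TGFA stood at 87.0 and 77.8 CPM with siFAT1-1 in HN6 against 139.8 and 138 CPM with siFAT1-2, and in HN30 at 75.7 and 73.3 CPM against 196 and 223 CPM. EREG was abundant in HN30 alone, at 302.5 and 351 CPM with siFAT1-1 against 668 and 1268 CPM with siFAT1-2. Its call was lost without either HN30 siFAT1-1 library and with the GC trend removed, and the list's count of 4 was 1 without either of those libraries and 2 without repeat 1 of HN6 siFAT1-1, HN6 siFAT1-2 or HN30 siFAT1-2 and without HN30 siFAT1-2 repeat 2.

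Inflammatory genes divided. Of 33 TNF and NF-kappa B targets 6 were called higher with siFAT1-1 and 4 higher with siFAT1-2, at a median of 0.28. LIF, a cytokine of the IL-6 family (1.84), CSF2, which encodes GM-CSF (2.73), TNFAIP2 (1.44) and the subunit NFKB1 (0.91) were higher with siFAT1-1. NFKB1 stood at 45.2 and 42.5 CPM with siFAT1-1 in HN6 against 16.9 and 31.1 CPM with siFAT1-2, and in HN30 at 64.3 and 67.5 CPM against 31.7 and 36.8 CPM, with all 4 NC libraries at 67.0 CPM or more. The list's count of 10 was 5 or 6 without HN6 siFAT1-1 repeat 1, either HN30 siFAT1-1 library or HN30 siFAT1-2 repeat 1. The immediate early genes had, at a median of 0.12 that turned in 6 settings, SPRY4, a feedback inhibitor of growth factor signaling (1.36), as the called member of 28, and FOS and FOSB (-1.65 and -1.76) were not called (adjusted p = 0.148 and 0.101). SPRY4 lost its call, and the list had none, without repeat 1 of HN6 siFAT1-1 or HN6 siFAT1-2, either HN30 siFAT1-1 library or HN30 siFAT1-2 repeat 1. The list had 2 calls without repeat 1 of HN6 NC or HN30 NC, 3 without HN6 NC repeat 2 and 4 without HN6 siFAT1-2 repeat 2.

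Developmental pathways moved gene by gene, with medians near 0. In the Wnt list of 31 the secreted inhibitor DKK1 was higher with siFAT1-2 (-1.59 ± 0.248, adjusted p = 0.00226), and the ligands WNT7B (1.46) and WNT7A (0.91) and the coreceptor LRP5 (0.49) were higher with siFAT1-1. In the Notch list of 21 the ligand JAG1 (1.07), the glycosyltransferase MFNG (1.96) and HES4 (1.01) were higher with siFAT1-1 and the coactivator MAML1 was higher with siFAT1-2 (-1.15), at a median of 0.05 that was below 0 without TMM. In the TGF-beta list of 22 the latent binding proteins LTBP3 (0.96) and LTBP2 (0.79) and the inhibitors SMAD6 (1.5) and SKI (0.51) were higher with siFAT1-1, at a median of 0.07 that was below 0 without TMM. Of these genes DKK1, WNT7B, JAG1, MFNG and MAML1 kept their calls whichever library was left out. Without HN30 siFAT1-1 repeat 1 the counts were 2 of 31 for the Wnt list and 0 of 22 for the TGF-beta list, and without HN6 siFAT1-1 repeat 1 they were 2 and 1, with 3 for the Notch list. Without HN30 siFAT1-1 repeat 2 they were again 2 and 1, and without HN30 siFAT1-2 repeat 1 the TGF-beta list had 1. With the GC trend removed the TGF-beta list had 1 call. The Wnt list then went from 3 members called in each direction to 1 higher with siFAT1-1 and 5 higher with siFAT1-2, and the Notch list from 4 and 2 to 2 and 4, with its median at -0.175.

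Metabolic lists leaned to siFAT1-1. Cholesterol synthesis genes had 6 of 24 called, all higher with siFAT1-1, at a median of 0.49, among them the enzymes MVD (1.23) and FDPS (0.92). MVD stood at 160 and 116 CPM with siFAT1-1 in HN6 against 81.7 and 59.6 CPM with siFAT1-2, and in HN30 at 142 and 134 CPM against 40.5 and 60.2 CPM. NC (125 and 108 CPM) lay above siFAT1-2 and about the lower siFAT1-1 library in HN6, and near the upper siFAT1-2 library in HN30 (59.6 and 63.4 CPM). The count was 3 without either HN30 siFAT1-1 library. With the GC trend removed 10 members were higher with siFAT1-1 and 1 with siFAT1-2.

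Fatty acid synthesis had 5 of 16 called, all higher with siFAT1-1, with ACSS2 (0.99), ACSL1 (0.74), SCD (0.96) and FADS2 (0.85). Glycolysis and hypoxia genes had 5 of 32, among them PFKP, which commits glucose to glycolysis (1.01 ± 0.141, adjusted p = 0.00141), HK1 (0.77), PFKFB4 (1.31) and the glucose carrier SLC2A1 (0.51), again all higher with siFAT1-1. NRF2 targets, the antioxidant defence, had 7 of 25 higher with siFAT1-1, such as NQO1 (0.85) and OSGIN1 (1.21), and PRDX1 higher with siFAT1-2 (-0.80). Leaving out single libraries gave 2 to 6 calls for fatty acid synthesis, 3 to 10 for glycolysis and 5 to 10 for NRF2 targets, the lowest counts without HN30 siFAT1-1 repeat 1 among others and the highest without HN6 NC repeat 2, HN30 siFAT1-2 repeat 2 and HN6 siFAT1-2 repeat 2 in that order.

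Housekeeping lists had medians near 0. The share called was 10.4% for the respiratory chain, 16.1% for the proteasome and 22.9% for trafficking, against 17.0% of all genes. Of 48 mitochondrial respiratory chain genes 5 were called (NDUFB5, 1.00, NDUFB10, 0.63, and NDUFS8, 0.68, higher with siFAT1-1 and COX7C, -0.63, with siFAT1-2 among them), at a median of 0.01 that was below 0 without TMM and in 9 other settings. Proteasome subunits had 5 of 31 called and clathrin, endosome and Golgi trafficking genes 8 of 35, at medians of 0.06 that were below 0 without TMM. PSMD13, the proteasome lid subunit whose 3′UTR word is shown above, stood at 344 and 269.9 CPM with siFAT1-1 in HN6 against 70.8 and 71.1 CPM with siFAT1-2, and in HN30 at 194 and 210.2 CPM against 81.6 and 62.0 CPM. For PSMD13 NC lay about the siFAT1-1 level (262 and 359 CPM, then 185 and 152 CPM), at 1.78 ± 0.207 between the duplexes (adjusted p = 0.000701), while PSMC6 (-0.98) and PSMD12 (-0.83) were higher with siFAT1-2. Among the trafficking genes the Golgi GTPase ARF1 (0.93), the adaptor subunits AP2M1 (0.73) and AP2A1 (0.68) and the coat protein SEC24C (0.64) were higher with siFAT1-1. Without HN30 siFAT1-1 repeat 1 the counts of the 3 lists were 1 for the respiratory chain, 2 for the proteasome and 4 for trafficking, and the respiratory chain list had 9 calls without HN6 NC repeat 2.

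The remaining lists held few calls. Of 27 genes of folding in the endoplasmic reticulum, the stress sensor ATF6 (-0.56) and the chaperone DNAJB11 (-0.63) were called, both higher with siFAT1-2 and both lost without HN30 siFAT1-1 repeat 1 among other libraries. Amino acid response genes had the tRNA synthetase gene CARS higher with siFAT1-1 (0.95) and the tRNA exporter XPOT higher with siFAT1-2 (-0.62). XPOT lost its call with the GC trend removed and without HN6 siFAT1-1 repeat 1, HN6 siFAT1-2 repeat 2 or any of the 4 HN30 libraries of the duplexes. The list's count of 2 was 1 without HN6 siFAT1-1 repeat 1 or any of those 4 libraries, 4 without HN30 NC repeat 1 and 5 without HN6 siFAT1-2 repeat 2, and with the GC trend removed it was 3 higher with siFAT1-1 and 4 higher with siFAT1-2. S100 and cornified envelope genes had S100A10 (0.87) on one side and involucrin (IVL, -2.83), at no more than 4.85 CPM, on the other. None of 13 genes of the RNA interference machinery was called by edgeR, with 3 at an unadjusted P under 0.05, 1 called by DESeq2 and 0 by limma-voom, at a median of -0.19.

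**Figure D4:**
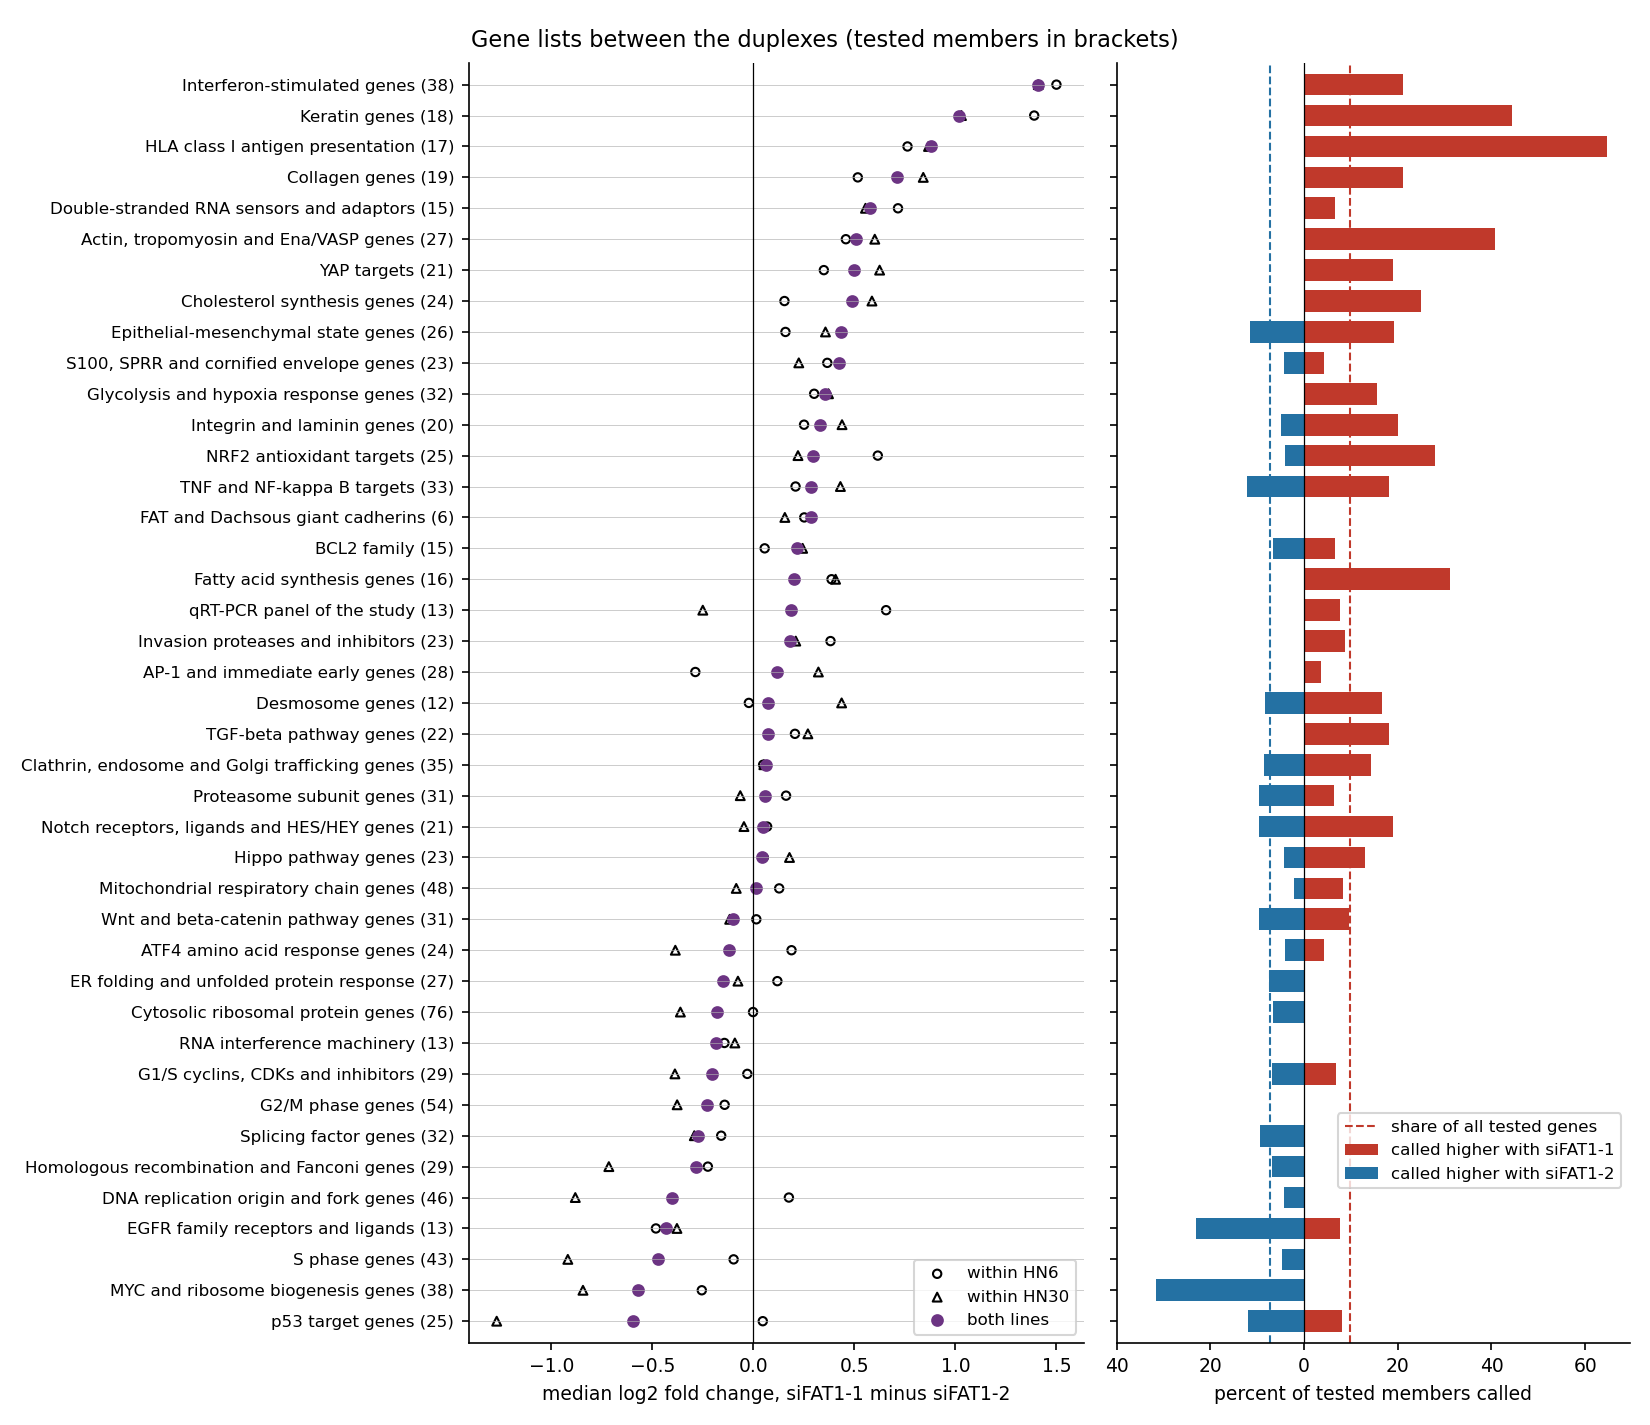
Median log2 fold change between siFAT1-1 and siFAT1-2 for 41 gene lists (left, filled circles for both lines, open circles HN6, open triangles HN30) and percent of tested members called in each direction (right, red higher with siFAT1-1, blue higher with siFAT1-2, dashed lines at the 9.77% and 7.25% of all genes). Interferon-stimulated, keratin and HLA class I genes lie at the top, MYC and p53 target genes at the bottom.

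The difference between the duplexes also followed base composition. Genes called higher with siFAT1-1 had a median transcript GC content of 57.1% and those called higher with siFAT1-2 of 43.1%, against 49.1% over all tested genes. In the 10% of genes with the lowest GC content the median difference was -0.53, and 13.3% of these genes were called higher with siFAT1-2 and 0.714% higher with siFAT1-1. In the 10% with the highest GC content the median was 0.31, with 2.21% and 17.8%. Against NC the GC content correlated with the difference at r = 0.0174 for siFAT1-1 and -0.391 for siFAT1-2 across genes that share these libraries.

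In each library the 20% of genes with the highest GC content were set against the 20% with the lowest, from the mean of the line. This gap was -0.60 and -0.90 in the siFAT1-2 libraries of HN6 and -0.21 and -0.23 in those of HN30, and 0.38, 0.01, 0.20 and 0.17 in the siFAT1-1 libraries. It was largest in HN6 NC repeat 2, at 1.15, against -0.08 in repeat 1. When each library's GC trend was removed, 2422 genes were called, 1627 of them among the 2400, with 1210 higher with siFAT1-1 and 1212 higher with siFAT1-2. The medians were 1.43 for interferon-stimulated genes, 0.65 for HLA class I, 0.36 for actin genes, -0.54 for MYC and ribosome biogenesis genes and -0.67 for p53 targets, and 33 of the 153 called named genes lost their call. The part of base composition in the differences was not tested beyond this.

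**Figure D5:**
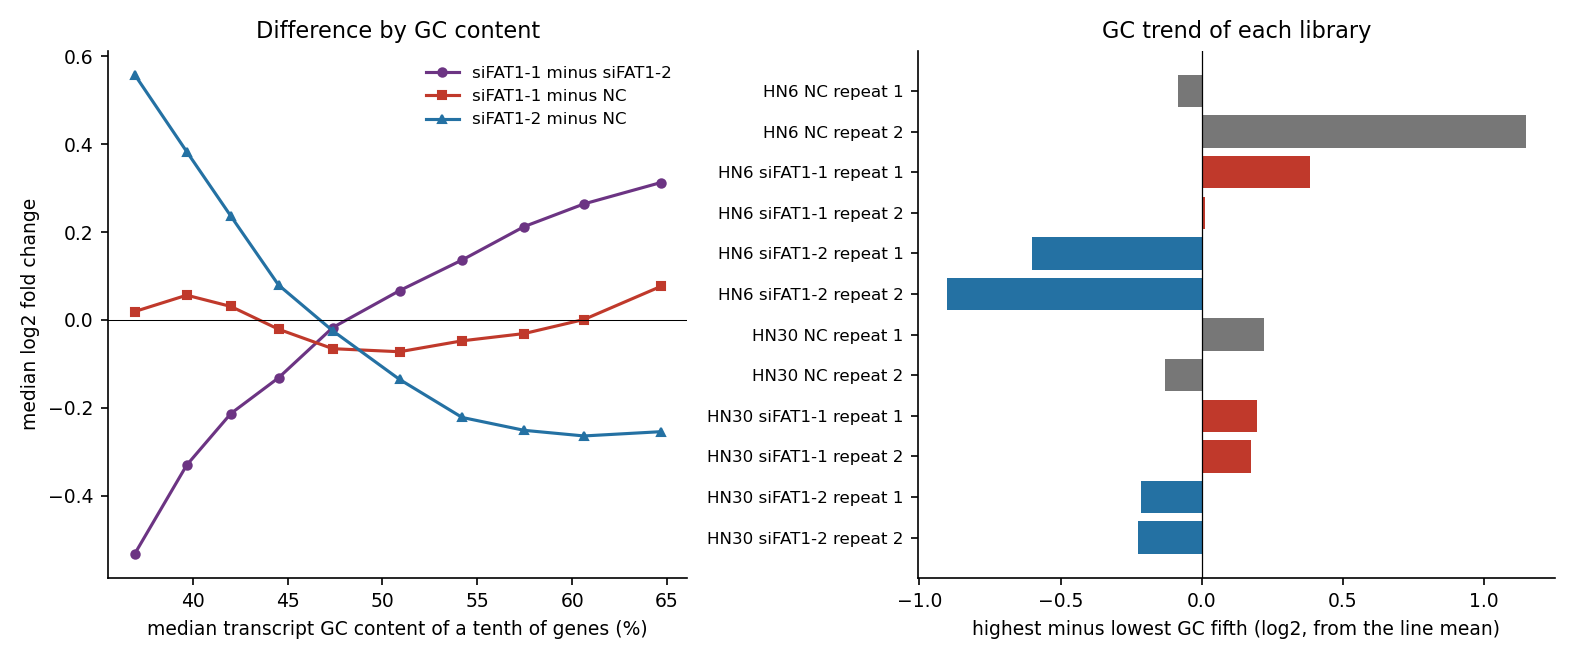
Left, median log2 fold change in 10 equal groups of genes ordered by transcript GC content, for siFAT1-1 minus siFAT1-2 and for each duplex minus NC. Right, log2 level of the highest minus the lowest 20% of genes by GC content in each library, from the mean of its line, with the siFAT1-2 libraries between -0.90 and -0.21 and HN6 NC repeat 2 at 1.15.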

How the data were processed

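Poly(A) RNA of HN6 and HN30 cells was sequenced by the authors as 150 bp paired-end reads, mapped to hg38 and deposited as whole-number counts per gene for 12 libraries, without normalization. The submitters' processing notes name HISAT2 and featureCounts. Versions, gene annotation and strand setting are not given in the sources used here, so overlapping, antisense and near-identical genes are uncertain. Groups came from the sample labels. No column of per-sample values was left out (0).

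The members and lists were chosen with earlier results of these data known. Genes were filtered with filterByExpr (minimum count 10) and tested with edgeR 4.0.16 (TMM, glmQLFit, glmQLFTest, R 4.3.3) on all 12 libraries with cell line and siRNA as terms, as siFAT1-1 minus siFAT1-2, with Benjamini-Hochberg adjustment over all tested genes. Within-line differences and the interaction used 6 condition means. CPM values use TMM-scaled totals. The table held 19225 entries, of which 27 had become dates. GENCODE 44 (GRCh38) held 18278 of the symbols as written and 748 under a newer name, and 199 had no match. GC content was known for 14010 tested genes (99.3%), and the GC offset removed a lowess trend (span 0.3) of each library. Named were FAT1, the 10 genes with the smallest p and the 5 with the largest change in each direction among called genes without overlap in both lines, up to 4 genes per list past either threshold, and all 13 members of the qRT-PCR panel. Some genes that this rule names are not reported here. The letters of the guides came from the study's methods, and the words were searched on the transcript strand of GENCODE's canonical transcripts. The words of a guide overlap in 6 letters. As alternatives, normalization, filter, tool, design, each left-out library, the repeat as a block and the GC offset were tried.

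The design text places the repeats at separate times, so that repeat numbers pair libraries within a line. Deviations from the condition means correlated between same-numbered libraries at 0.233, 0.0747 and 0.217 in HN6 (siFAT1-1 with siFAT1-2, NC with siFAT1-1, NC with siFAT1-2) and at -0.0203, -0.0293 and 0.401 in HN30.

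The fit was tested on simulated data made from these libraries, with 100 genes changed 2-fold and 100 changed 4-fold among 13922. edgeR recovered 33% and 91% of them with 6 false calls (4.62% of calls), and DESeq2 40% and 93% with 21 false calls (13.6%). The simulated counts were drawn independently for each gene, with no difference between the lines and no GC trend of a library. The share of false calls among the real calls is therefore not known from them. The common dispersion was 0.0996, so the spread between libraries and not the depth set the precision. In this fit that spread includes differences in response between the lines.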

Additional observations from a re-analysis of the deposited data

Results flagged for a closer look

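EMC6, a subunit of the complex that inserts proteins into the membrane of the endoplasmic reticulum and a gene of the study's qRT-PCR panel, was singled out because every siFAT1-1 library lay above every siFAT1-2 library in HN6 and below them in HN30. It stood at 82.3 and 80.6 CPM with siFAT1-1 in HN6 against 74.6 and 69.3 CPM with siFAT1-2, and in HN30 at 51.8 and 54.5 CPM against 75.3 and 56.5 CPM. The log2 fold change was 0.18 in HN6 and -0.31 in HN30. The difference of 0.492 between the lines did not pass the interaction test (edgeR, adjusted p = 0.833), and over both lines EMC6 differed by -0.07 (adjusted p = 0.824). The NC libraries held 29.9 and 46.0 CPM in HN6 and 28.2 and 18.5 CPM in HN30, below every siRNA library of the same line.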

How the results depend on the processing

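Of 153 called named genes, none changed sign in any of up to 24 alternative settings, 38 stayed past the threshold in all of them, and 115 lost it without a term for cell line, where 286 genes were called (186 higher with siFAT1-1, 100 higher with siFAT1-2, and 1058 by the P and fold change thresholds). The number higher with siFAT1-2 was 1606 in the 8 libraries alone and 1588 with DESeq2. Leaving out single libraries gave 994 to 3333 calls, 660 to 1666 higher with siFAT1-1 and 334 to 1667 higher with siFAT1-2. Within HN6 the count was 1134 in the 8 libraries alone, 979 with DESeq2, 8 with the replicate block, 42 with the GC offset, 52 with the GC offset and the block, and 0 to 1148 with single libraries left out. Within HN30 it was 1930, 2481 and, with the GC offset and the block, 1940, and 0 to 1984. DESeq2 called 9 genes for the interaction. The replicate block gave 2496 calls over both lines and changed no other call named in the text than those given there. The median of genes with the siFAT1-1 word was -0.0638 in coding sequences, -0.165 for the shorter word and -0.196 with the GC offset, and that of genes with the siFAT1-2 word 0.0925 for the shorter word and 0.417 with the GC offset. Of 32 named genes that were not called, 8 of the qRT-PCR panel changed sign in some setting. With limma-voom KIF2C read 0.0978. With the GC offset GANAB read -0.0228, MCM5 -0.0329 and PERP 0.185, and with the offset and the block GANAB read -0.0235 and PERP 0.194. With single libraries left out KIF2C ran from -0.73 to 0.17, CD83 from -0.483 to 0.00431, CCNE1 from -0.0271 to 0.711, MCM5 from -0.105 to 0.471, EMC6 from -0.162 to 0.0786, MCM2 from -0.549 to 0.153 and PERP from -0.176 to 0.0417. The GC settings were chosen after seeing the data, and the cause of the moves was not tested. With 2 lines and 2 repeats genes that were not called may still differ.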
